A study of Mus musculus with 6 samples.

Results

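Ide, the insulin-degrading enzyme, and 9 genes of insulin and insulin-like growth factor (IGF) signalling (Insr, Irs1, Irs2, Igf1, Igf1r, Igf2r, Igfbp2, Igfbp5 and Igfbp6) were compared between the prefrontal cortex of BTBR mice and that of C57BL/6J mice. Every non-control probe that the array design names after one of these genes was taken, which gave 19 of 41174 probes and 9 of the 19935 gene names on the array. Irs2, the second insulin receptor substrate, is not analysed here because no probe carried its name. All 19 probes were well above background on all 6 arrays.

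The tested mice were 3 males of the inbred strain BTBR T+ Itpr3tf/J, a strain without a corpus callosum that serves as an autism model. The controls were 3 wild-type males of C57BL/6J, a common inbred strain. All were 5 months old and untreated, and the whole prefrontal cortex of each mouse was hybridised to 1 one-colour Agilent array. BTBR is given by the titles and the genotype field of these samples, although their strain background field reads C57BL/6J. BTBR differs from C57BL/6J across the whole genome, so no difference below can be assigned to an allele by this design.

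Levels are log2 signals relative to the 75th percentile of the same array, so 0 is that percentile and a difference of 1 is a doubling. Values are means ± SD over 3 mice and differences are BTBR minus C57BL/6J ± standard error (SE), tested per probe with limma and adjusted by the Benjamini-Hochberg method over all 30011 probes that were well above background on at least 3 arrays. A probe passed at an adjusted p under 0.05. Between 28100 and 29950 probes were well above background on the BTBR arrays and between 29977 and 30665 on the C57BL/6J arrays. The 8 cortical excitatory neuron markers examined were well above background on all 6 arrays. Their summed signal (relative to the 75th percentile) was 74.2, 53.3 and 70.3 in BTBR mice, against 64.0, 68.3 and 44.4 in C57BL/6J mice. That sum was lowest of its strain on BTBR 2 and C57BL/6J 3. Summed markers of striatal projection neurons stood highest on C57BL/6J 3, and among the BTBR arrays on BTBR 2. Slide 1 carried mice 1 and 2 of each strain and slide 2 carried mouse 3 of each.

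Insulin and IGF1 bind related receptor tyrosine kinases, encoded by Insr and Igf1r, which phosphorylate insulin receptor substrates and so reach the phosphatidylinositol 3-kinase and Akt pathway. IGF-binding proteins hold IGFs outside the cell and set how much reaches the receptor, the Igf2r product takes up IGF2 for breakdown, and the Ide peptidase cleaves insulin, other small peptides and amyloid-β. In the brain the pathway is known for its part in neuronal growth, survival, synaptic plasticity and myelination.

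The sequences of 4 of the 60-base probes are given in lower case to show what was measured. The first pair read Ide at separate places in its transcript, and they carry the strain difference described next. An Igf1 probe whose strains did not overlap and an Insr probe whose strains did are shown beside them. The second Ide probe is represented by its first 30 bases.
Ide A_51_P299644: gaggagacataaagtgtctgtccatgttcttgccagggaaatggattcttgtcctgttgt
Ide A_52_P266530: tctatacaaagatgaatctaaacttagtcc
Igf1 A_52_P536434: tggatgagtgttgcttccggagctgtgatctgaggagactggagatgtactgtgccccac
Insr A_52_P6490: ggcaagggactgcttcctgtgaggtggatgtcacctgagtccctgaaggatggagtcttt

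In mm9 coordinates, Ide A_51_P299644 lies at chr19:37346053-37346694 on the minus strand, and its 60 bases span 642 bases of the genome. Ide A_52_P266530 lies at chr19:37343642-37343701 on the same strand. Igf1 A_52_P536434 lies at chr10:87376418-87376477 on the plus strand and Insr A_52_P6490 at chr8:3159473-3159532 on the minus strand. Exon and UTR annotation in mm9 was not used here. Whether BTBR carries sequence variants under these or any other probes was not examined here, so a difference in signal at a single probe may not be one in RNA level. Positions in the transcript model NM_031156 were 2872 and 4616 for the Ide probes, so they do not share bases. GC content was 45% and 35% for these probes, against 55% for the Igf1 probe and 55% for the Insr probe.

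Ide fell in BTBR cortex to about 0.53 of its C57BL/6J level, on both of its probes. They were the only 2 of the 19 probes to pass the test, and both were lower in BTBR. Over all probes tested, 5.44% passed (3.25% lower and 2.19% higher). At probe A_51_P299644, Ide levels were 1.77, 1.87 and 1.88 in BTBR mice, against 2.80, 2.72 and 2.73 in C57BL/6J mice. The highest BTBR mouse lay well below the lowest C57BL/6J mouse. Means were 1.84 ± 0.06 and 2.75 ± 0.04, a difference of -0.92 ± 0.10 (95% interval -1.15 to -0.68), or 1.89-fold lower in BTBR (limma adjusted p = 0.00342, rank 468 of all probes by p).

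The second Ide probe, A_52_P266530, read 0.34, 0.31 and 0.36 in BTBR mice, against 1.37, 1.19 and 1.24 in C57BL/6J mice. Again all 3 BTBR mice lay below all 3 C57BL/6J mice, and the BTBR values were almost equal. Means were 0.34 ± 0.02 and 1.27 ± 0.09, a difference of -0.93 ± 0.10 (95% interval -1.18 to -0.69), or 1.91-fold lower (limma adjusted p = 0.00374). The gap between both Ide probes within an array was 1.43, 1.55 and 1.52 in BTBR mice and 1.43, 1.53 and 1.49 in C57BL/6J mice. That gap differed by 0.02 between strains (two-sided exact permutation test p = 0.7, n = 3 each), less than the SD of the gap among mice (0.06 in BTBR and 0.05 in C57BL/6J). Among 7025 genes with at least 2 tested probes, 1.35% had every probe pass in the same direction. That share includes genes with more than 2 probes, for which the condition is stricter than for Ide.

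The Ide difference held on each slide. It was -0.95 and -0.96 for probes A_51_P299644 and A_52_P266530 on slide 1, and -0.86 and -0.88 on slide 2, where a single mouse per strain allows no test. In the authors' deposited values the corresponding differences were -0.89 and -0.80. Both probes passed in every other setting tried except normexp background correction, under which they fell by 0.87 (limma adjusted p = 0.0672) and 0.81 (adjusted p = 0.066). Adjusted p over all settings ran from 0.000242 to 0.0672 for the first probe and from 0.000661 to 0.066 for the second.

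**Figure D1:**
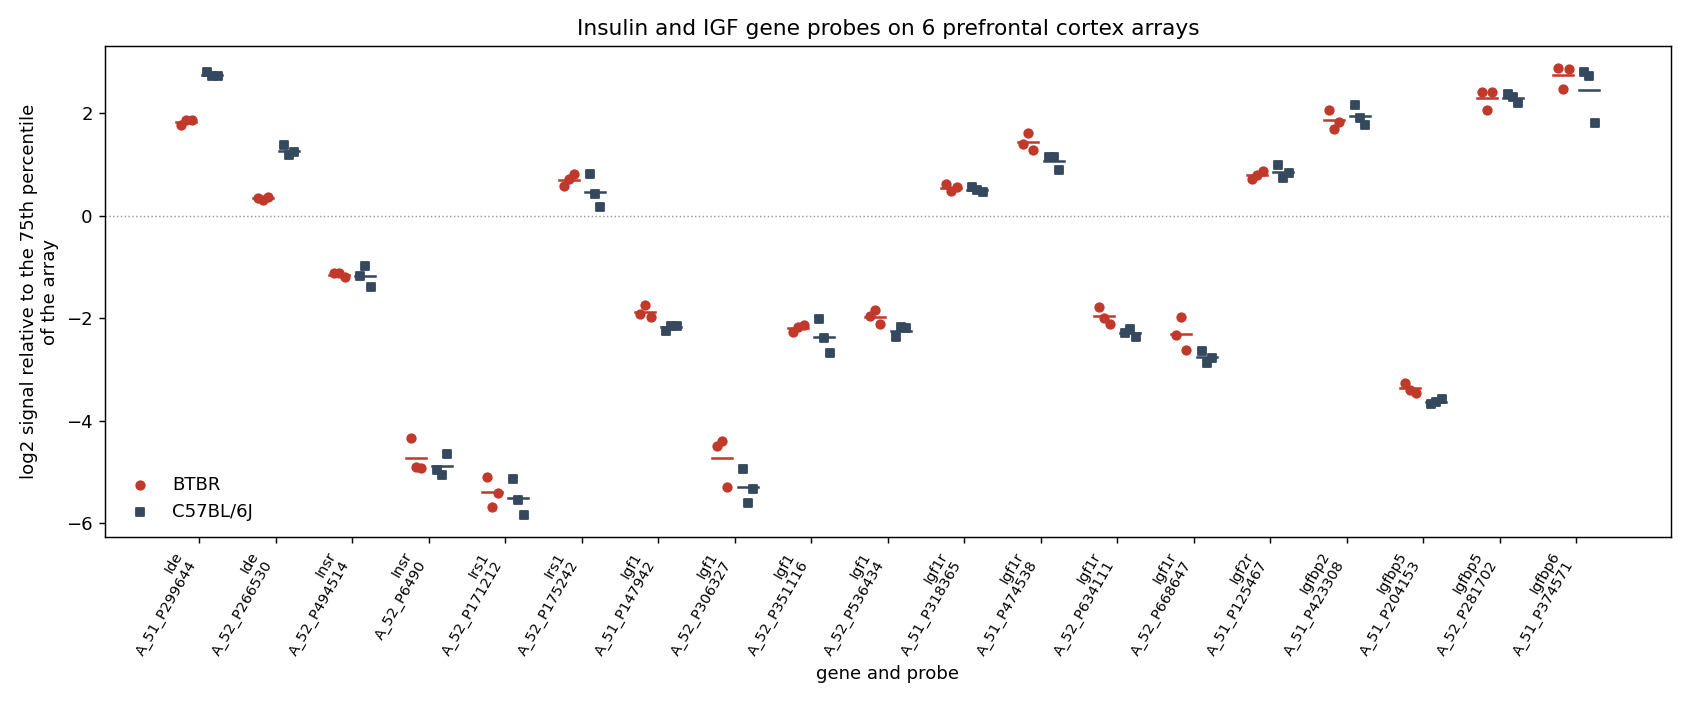
Log2 signal of each probe relative to the 75th percentile of its array (vertical axis) for each gene and probe (horizontal axis), with 1 point per mouse, circles for BTBR, squares for C57BL/6J and a bar at the mean. The 3 BTBR mice lie below the 3 C57BL/6J mice at both Ide probes, at 1.84 against 2.75 and 0.34 against 1.27 on average, while strains differ less at the other 17 probes.

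Single markers of some cell types also passed the test. Over all 15993 genes, each taken by its brightest tested probe, 5.24% passed (2.02% higher and 3.22% lower). The summed level of 6 oligodendrocyte markers (signal relative to the 75th percentile) was 111.2, 101.1 and 113.4 in BTBR mice, against 137.6, 171 and 158.5 in C57BL/6J mice, without overlap. Of these markers 1 passed, Mag, a myelin adhesion protein, which was lower in BTBR. An unadjusted p under 0.05 was seen for 4 of 6, against 16.8% of all probes. The median difference of the 6 markers was -0.58. The dimmest of them, Mog, a myelin surface protein, was still well above background on all arrays. The part of these cells in the Ide difference was not tested, and in whole tissue fewer cells of a type and less RNA per cell cannot be told apart. Summed interneuron markers ran from 58.2 to 63.7 in BTBR mice and from 64.8 to 68.8 in C57BL/6J mice, with 0 of 6 markers passing in limma and 0 at an unadjusted p under 0.05. Summed astrocyte markers overlapped between strains, and 1 of 6 passed, Gfap, an intermediate filament protein, which was lower.

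Probes of neighbouring genes were examined within 500 kb of Ide on chromosome 19. Of 25 other probes there, for 16 gene names, 19 were tested. Against 5.44% of all tested probes (3.25% lower), 2 of these 19 passed, both lower in BTBR. The nearest was the long non-coding RNA 4931408D14Rik, whose probe lies at -13.35 kb from the first Ide probe, towards lower coordinates, on the same strand. Its levels were -3.63, -3.37 and -4.05 in BTBR mice, against -2.47, -2.67 and -2.50 in C57BL/6J mice, so all BTBR mice were lower. The difference was -1.14 ± 0.19 (limma adjusted p = 0.0195).

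The other was Fgfbp3, a secreted carrier of fibroblast growth factors, at -354.1 kb. It read -3.19, -3.19 and -3.27 in BTBR mice, against -1.98, -2.34 and -2.63 in C57BL/6J mice, a difference of -0.90 ± 0.18 (limma adjusted p = 0.0374). Its second probe was not well above background on any array. The cDNA AK047888, next to Fgfbp3, read -4.46, -4.24 and -5.07 in BTBR mice, against -3.23, -3.77 and -3.76 in C57BL/6J mice. The BTBR mice were all lower there, but the difference of -1.0 ± 0.26 did not pass (limma adjusted p = 0.0923).

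The remaining genes around Ide did not pass. Marchf5, a mitochondrial ubiquitin ligase gene about 50 kb away, differed by -0.10 and -0.07 at its probes (limma adjusted p = 0.732 and 0.85). Kif11, a mitotic kinesin gene, differed by -0.38 (adjusted p = 0.414), and Hhex, a homeobox gene, by 0.05 and 0.15 (adjusted p = 0.968 and 0.682).

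**Figure D2:**
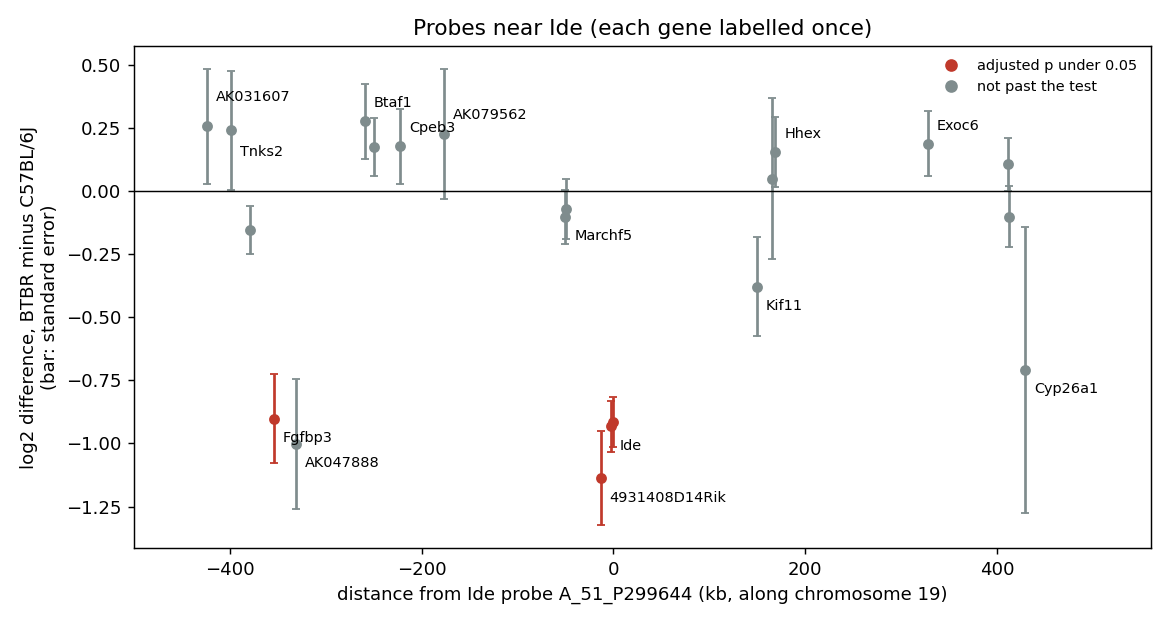
Log2 difference between BTBR and C57BL/6J (vertical axis, bars are standard errors) of every tested probe within 500 kb of the Ide probe, against distance in kb (horizontal axis). Red points passed the test: Ide at -0.92 and -0.93, 4931408D14Rik at -1.14 and Fgfbp3 at -0.90, while the remaining 17 probes did not pass.

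The 5 genes whose strain pattern lay closest to that of Ide probe A_51_P299644 were sought among 1001 other genes that passed and were well above background on all arrays. Likeness was the Euclidean distance between mean-centred log2 levels over the 6 arrays, and since each candidate had passed, their strain differences describe the choice. They were Syt1, the synaptic vesicle calcium sensor (distance 0.0899), a probe of Mog (0.106), the zinc finger gene Zfp68 (0.136), Rbks, ribokinase (0.144), and Srd5a1, steroid 5α-reductase (0.146). The second Ide probe lay at 0.12 from the first. None of these 5 genes lies on chromosome 19. The Mog probe named here is another one than that in the marker sum.

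The remaining 17 probes, for 8 genes, had 0 passes in limma and 5 with an unadjusted p under 0.05, all higher in BTBR. With Ide these were 7 of 19, against 16.8% of all probes in either direction (8.34% higher). Strains did not overlap at 8 probes, 6 higher and 2 lower in BTBR, against 22.8% of all probes (11.9% higher and 11% lower). Means were higher in BTBR at 14 of the 17 probes other than Ide, against 57.2% of all probes. Their differences ran from -0.09 to 0.57 with a median of 0.23, against a median of 0.04 over all probes. Probes of a gene share its transcripts, so these counts are not of independent measurements.

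Igf1, the ligand of the IGF1 receptor, was higher on average in BTBR at each of its 4 probes without passing the test. Probe A_51_P147942 is printed as 10 spots per array, and its levels were -1.92, -1.74 and -1.97 in BTBR mice, against -2.25, -2.15 and -2.15 in C57BL/6J mice. All 3 BTBR mice lay above all 3 C57BL/6J mice. The difference was 0.30 ± 0.11 (95% interval 0.04 to 0.57, limma adjusted p = 0.228). Probe A_52_P536434 read -1.96, -1.84 and -2.12 in BTBR mice, against -2.38, -2.17 and -2.19 in C57BL/6J mice. Here too the strains did not overlap, though BTBR 3 and C57BL/6J 2 almost met, and the difference was 0.27 ± 0.12 (adjusted p = 0.34).

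The other Igf1 probes overlapped between strains. A_52_P351116 read -2.28, -2.18 and -2.13 in BTBR mice, against -2.02, -2.40 and -2.69 in C57BL/6J mice, and its difference of 0.17 ± 0.18 came with a wide spread among the C57BL/6J mice (limma adjusted p = 0.728). It was 0.35 without C57BL/6J 1 and 0.015 without C57BL/6J 3. A_52_P306327, designed on the cDNA AK050118, read -4.49, -4.41 and -5.29 in BTBR mice, against -4.94, -5.62 and -5.33 in C57BL/6J mice (0.57 ± 0.28, adjusted p = 0.401). BTBR 3 was low and close to its C57BL/6J slide partner, so the difference was 0.83 on slide 1 and 0.04 on slide 2. With the probes of a gene averaged, Igf1 differed by 0.33 ± 0.12 (95% interval 0.04 to 0.62, limma adjusted p = 0.227).

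Among the receptors, Igf1r was higher in BTBR without overlap at 3 of its 4 probes, none of which passed. Probe A_51_P474538 read 1.41, 1.62 and 1.29 in BTBR mice, against 1.15, 1.15 and 0.89 in C57BL/6J mice. The difference was 0.38 ± 0.14 (95% interval 0.04 to 0.71, limma adjusted p = 0.237), and it was 0.36 on slide 1 and 0.40 on slide 2. Without BTBR 2 and C57BL/6J 3, the arrays with the highest striatal marker sums of their strains, it was 0.20 (adjusted p = 0.505). Probe A_52_P634111 read -1.78, -2.00 and -2.11 in BTBR mice, against -2.30, -2.22 and -2.37 in C57BL/6J mice (0.33 ± 0.13, adjusted p = 0.252).

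Probe A_52_P668647 of Igf1r, designed on the cDNA AK044980, read -2.33, -1.98 and -2.62 in BTBR mice, against -2.64, -2.88 and -2.78 in C57BL/6J mice (0.46 ± 0.18, limma adjusted p = 0.27). The strains almost met, at BTBR 3 and C57BL/6J 1, and the difference was 0.30 without BTBR 2. The fourth probe, A_51_P318365, read 0.61, 0.47 and 0.56 in BTBR mice, against 0.56, 0.50 and 0.47 in C57BL/6J mice, and the strains overlapped (0.04 ± 0.10, 95% interval -0.20 to 0.28, adjusted p = 0.906). Probes of Igf1r thus did not all give the same value. The gap between A_51_P318365 and each of the other 3 probes differed between strains by 0.29 to 0.42 in size without overlap, with an exact permutation p of 0.1 each, the smallest that 3 against 3 mice allow (0.533 adjusted over 16 probe pairs of these genes). With probes averaged, Igf1r differed by 0.30 ± 0.10 (95% interval 0.05 to 0.56, limma adjusted p = 0.202).

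Insr, the insulin receptor, did not differ beyond the spread between mice. Probe A_52_P494514 read -1.13, -1.12 and -1.21 in BTBR mice, against -1.18, -0.98 and -1.39 in C57BL/6J mice. Every BTBR value lay inside the C57BL/6J range, and the 95% interval of the difference (0.03) was -0.28 to 0.35 (limma adjusted p = 0.945). The dim probe A_52_P6490 read -4.34, -4.90 and -4.94 in BTBR mice, against -4.97, -5.07 and -4.66 in C57BL/6J mice (0.17 ± 0.20, adjusted p = 0.77). Its difference was 0.39 on slide 1 and -0.28 on slide 2, where the order of the strains was the opposite.

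Irs1, the receptor substrate that docks phosphatidylinositol 3-kinase, spread more among C57BL/6J mice than among BTBR mice at its bright probe. A_52_P175242 read 0.57, 0.71 and 0.81 in BTBR mice, against 0.82, 0.42 and 0.16 in C57BL/6J mice. C57BL/6J 3 was the lowest of all and C57BL/6J 1 the highest, so strains overlapped (0.23 ± 0.18, 95% interval -0.21 to 0.67, limma adjusted p = 0.638). The difference was 0.41 without C57BL/6J 1 and 0.077 without C57BL/6J 3. The dim probe A_52_P171212 read -5.11, -5.69 and -5.41 in BTBR mice, against -5.14, -5.54 and -5.84 in C57BL/6J mice (0.10 ± 0.23, adjusted p = 0.89). Igf2r, the IGF2 and mannose-6-phosphate receptor, had a single probe, which read 0.73, 0.80 and 0.87 in BTBR mice, against 0.98, 0.73 and 0.83 in C57BL/6J mice. Its strains overlapped, and the 95% interval of the difference (-0.05) was -0.32 to 0.23 (adjusted p = 0.905).

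**Figure D3:**
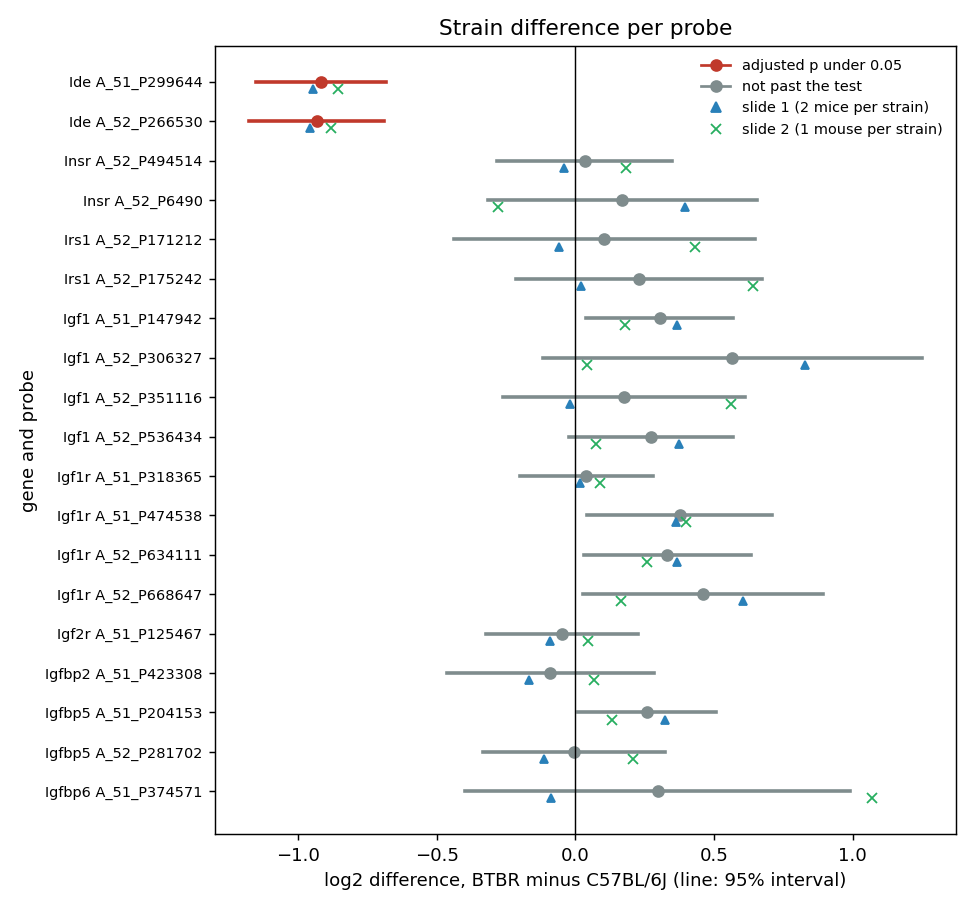
Log2 difference between BTBR and C57BL/6J (horizontal axis) for each gene and probe (vertical axis), with a point at the estimate, a line for its 95% interval, and separate marks for slide 1 (2 mice per strain) and slide 2 (1 mouse per strain). Both Ide probes lie near -0.9 on both slides, and the Igfbp6 marks lie far apart, at -0.09 on slide 1 and 1.07 on slide 2.

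Of the binding proteins, Igfbp5 had 2 probes and neither passed. The bright probe A_52_P281702 read 2.41, 2.06 and 2.41 in BTBR mice, against 2.38, 2.31 and 2.21 in C57BL/6J mice, and strains overlapped (-0.00 ± 0.14, 95% interval -0.33 to 0.32, limma adjusted p = 0.994). The dim probe A_51_P204153 read -3.27, -3.39 and -3.45 in BTBR mice, against -3.68, -3.63 and -3.59 in C57BL/6J mice. All BTBR mice lay above all C57BL/6J mice at that probe (0.26 ± 0.10, adjusted p = 0.28). The gap between the probes overlapped between strains (exact permutation p = 0.2).

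Igfbp2, a binding protein made in the brain by glia and the choroid plexus, read 2.06, 1.69 and 1.83 in BTBR mice, against 2.17, 1.91 and 1.77 in C57BL/6J mice. Strains overlapped (-0.09 ± 0.16, 95% interval -0.46 to 0.28, limma adjusted p = 0.855). C57BL/6J 1 was highest. The summed choroid plexus markers were 0.418, 0.949 and 2.2 in BTBR mice, against 12.2, 0.456 and 2.08 in C57BL/6J mice, so they too were highest on C57BL/6J 1. Of 10 choroid plexus markers listed, 9 had a probe, 7 were tested and 0 passed in limma (0 at an unadjusted p under 0.05), and Otx2 was the dimmest. Across the other arrays the orders differed. BTBR 1 had the lowest sum, 0.418, yet its Igfbp2 level of 2.06 was above every array except C57BL/6J 1. The part of these markers in the Igfbp2 levels was not tested. Without C57BL/6J 1 the Igfbp2 difference was 0.02.

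Igfbp6, a binding protein that prefers IGF2, read 2.88, 2.48 and 2.87 in BTBR mice, against 2.80, 2.73 and 1.80 in C57BL/6J mice. C57BL/6J 3 lay far below the rest, and BTBR 2 was lowest of its strain. The difference was 0.30 ± 0.29 (95% interval -0.40 to 0.99, limma adjusted p = 0.708), and -0.02 without C57BL/6J 3. The summed level of 7 striatal projection neuron markers was 15.6, 54.9 and 13.1 in BTBR mice, against 22.8, 29.2 and 181.1 in C57BL/6J mice, highest on the arrays where Igfbp6 was lowest in each strain. All 7 were well above background on every array, Drd2 being the dimmest, and 0 passed in limma (0 at an unadjusted p under 0.05). Igfbp2 and the bright Igfbp5 probe A_52_P281702 were also lowest of their strains on BTBR 2 and C57BL/6J 3. The dim Igfbp5 probe was not. Igfbp4, another IGF carrier in the wider list, was likewise lowest of its strain on those arrays. It read -0.81, -1.39 and -0.80 in BTBR mice and -0.71, -0.56 and -1.85 in C57BL/6J mice. It was named after its values were seen. The cortical excitatory neuron sum was also lowest of its strain on those arrays, and the part of striatal or cortical tissue in these levels was not tested.

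**Figure D4:**
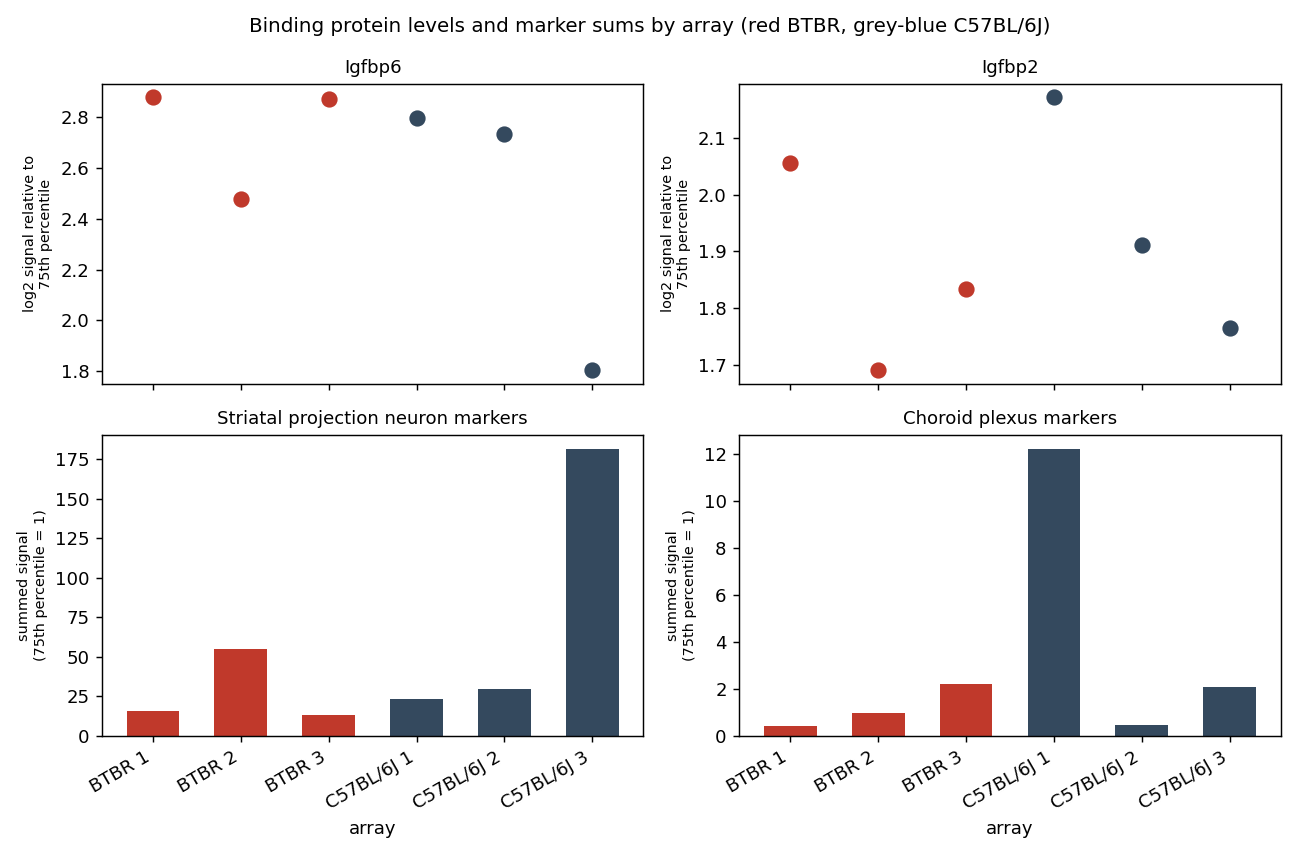
Log2 level of Igfbp6 and of Igfbp2 (upper panels) and the summed signal of striatal and of choroid plexus markers (lower panels) on each array (horizontal axis), with BTBR on the left. Igfbp6 is lowest, at 1.80, on C57BL/6J 3, where the striatal sum is 181.1, and Igfbp2 is highest, at 2.17, on C57BL/6J 1, where the choroid plexus sum is 12.2. BTBR 1 has the lowest choroid plexus sum, 0.418, and an Igfbp2 level of 2.06.

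The wider pathway was described with a list of 118 other insulin and IGF genes, each represented by its brightest tested probe. Of these, 117 had a probe and 109 were tested. Pcsk1 was higher and Gsk3a lower in BTBR, which is 1.83% of the 109, against 5.24% of 15993 genes taken the same way (2.02% higher and 3.22% lower). The median difference was 0.03, against 0.01 over all genes. Means were higher in BTBR for 63 genes and lower for 46, against 51.3% higher among all genes.

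The ligands and binding proteins of the list had 0 genes past the test in limma, with 0 and 2 at an unadjusted p under 0.05. Ins2, an insulin gene, differed by 0.31 ± 0.23 (limma adjusted p = 0.59), and Igf2 by 0.06 ± 0.25 (adjusted p = 0.945). Of 16 binding proteins and growth hormone axis genes, 11 were tested. Ghr, the growth hormone receptor, read -1.34, -1.25 and -1.46 in BTBR mice, against -0.80, -1.05 and -0.69 in C57BL/6J mice. The BTBR mice were all lower (-0.51 ± 0.13), yet the adjusted p was 0.099 and its 4 other probes differed by only -0.10 to -0.15. Stc2, a secreted inhibitor of the protease that cleaves IGF-binding proteins, differed by -0.41 ± 0.13 (limma adjusted p = 0.154). Its probe was dim and well above background on 5 of 6 arrays. Igfbp3, a main IGF carrier of the blood, differed by 0.58 ± 0.26 (limma adjusted p = 0.343).

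Receptors and adaptors of the list, 21 of 23 tested, had 0 genes past the test in limma (0 at an unadjusted p under 0.05), with differences from -0.37 to 0.29. The adaptor genes Gab1 (-0.37, limma adjusted p = 0.353) and Sos1 (-0.22, adjusted p = 0.456) and the scaffold gene Rack1 (0.19, adjusted p = 0.439) had the smallest p. The kinase and phosphatase group of the list held 42 genes, including others such as the ectoenzyme gene Enpp1. Of these, 7 had an unadjusted p under 0.05, and in the whole list 10 of 109 did, against 16.8% of all probes. Gsk3a was the only gene of the group to pass. It encodes glycogen synthase kinase 3α, which Akt phosphorylates and inhibits. Its sole probe read -2.92, -3.25 and -2.84 in BTBR mice, against -1.95, -1.58 and -2.07 in C57BL/6J mice, and all BTBR mice were lower. It was 2.21-fold lower (-1.14 ± 0.18, limma adjusted p = 0.016). Without BTBR 1, C57BL/6J 1 or C57BL/6J 2 the adjusted p was 0.0515 to 0.0634, and it was 0.0506 without BTBR 2 and C57BL/6J 3 together. Over all settings the difference ran from -1.33 to -0.59, the smallest in the authors' deposited values, and adjusted p from 0.00286 to 0.184.

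Pik3r1, the main regulatory subunit of phosphatidylinositol 3-kinase, was higher on average at all 4 probes. The brightest read 1.14, 1.02 and 1.15 in BTBR mice, against 0.86, 0.75 and 0.70 in C57BL/6J mice. The strains did not overlap there, and the difference was 0.33 ± 0.10 (limma adjusted p = 0.163). Its other probes gave 0.39, 0.42 and 0.52 (adjusted p = 0.441, 0.202 and 0.0911). Ptpn1, the phosphatase that removes phosphate from the insulin receptor, differed by 0.32 ± 0.12 (limma adjusted p = 0.251), with its other probe at 0.33 (adjusted p = 0.372).

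Downstream targets, 20 of 21 tested, had 0 genes past the test in limma (0 at an unadjusted p under 0.05). The transcription factor gene Foxo3 differed by 0.91 ± 0.47 (limma adjusted p = 0.411) at a dim probe, well above background on 5 of 6 arrays. The translation repressor gene Eif4ebp1 differed by -0.32 ± 0.20 (limma adjusted p = 0.526), and Eif4e, the cap-binding factor, by -0.20 ± 0.13 (adjusted p = 0.53). Of 13 peptidases that process or degrade insulin and related peptides, Pcsk1 passed. It encodes a convertase that cleaves proinsulin and other prohormones. It read -0.60, -0.30 and -0.50 in BTBR mice, against -1.07, -1.15 and -1.13 in C57BL/6J mice, without overlap, and was 1.57-fold higher (0.65 ± 0.12, limma adjusted p = 0.027).

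The second Pcsk1 probe was also higher in BTBR without overlap, by 0.47 ± 0.14 (limma adjusted p = 0.141). The Pcsk1 call was lost whichever mouse was left out (adjusted p 0.0611 to 0.119), and over all settings adjusted p ran from 0.0105 to 0.356. Among peptidases that did not pass, Pitrm1, a mitochondrial relative of Ide, differed by 0.29 ± 0.14 (limma adjusted p = 0.406), Ece1, endothelin-converting enzyme, by -0.14 ± 0.11 (adjusted p = 0.624) and Cpe, carboxypeptidase E, by -0.10 ± 0.13 (adjusted p = 0.785).

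**Figure D5:**
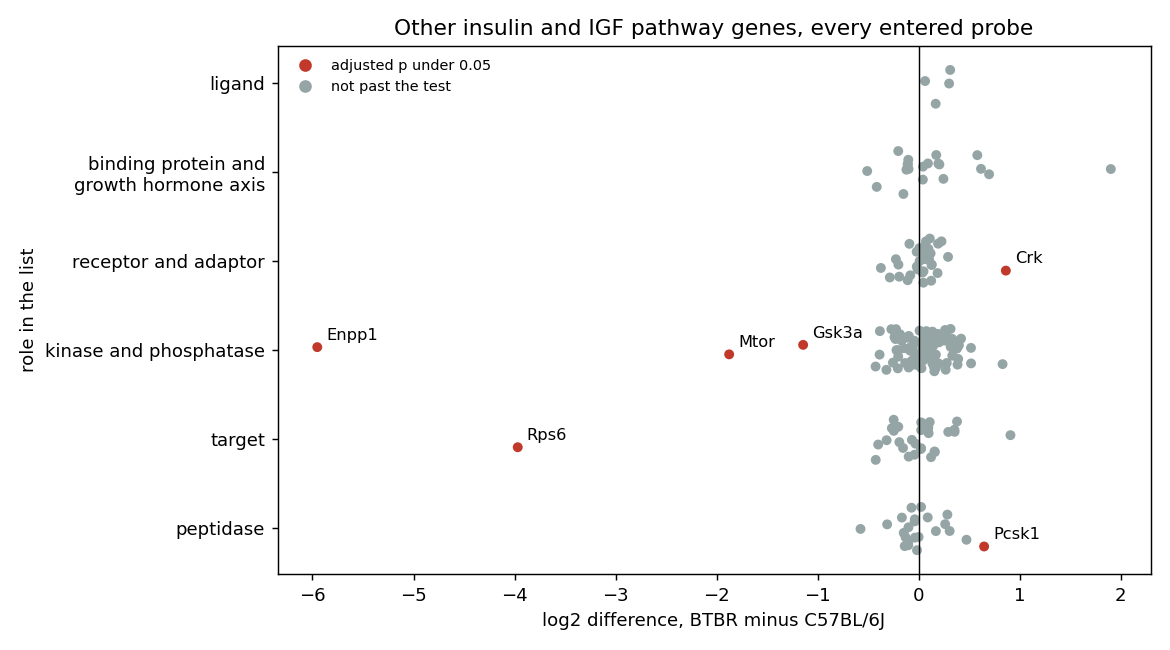
Log2 difference between BTBR and C57BL/6J (horizontal axis) of all 204 tested probes of the listed pathway genes other than Ide and the genes described with it, grouped by role (vertical axis, points spread within a role for legibility). Red points passed the test: Pcsk1 and Crk lie to the right of 0, and Enpp1, Rps6, Mtor and Gsk3a lie to its left, with Enpp1 and Rps6 drawn at their measured values although BTBR was not well above background.

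Over all 204 tested probes of the listed genes, 6 passed (2.94%, against the 5.44% of all probes), 2 higher and 4 lower in BTBR. Of the 4 lower ones, those of Enpp1 and Rps6 entered the test only through the C57BL/6J arrays. Besides Gsk3a and Pcsk1 these were single probes of Enpp1, Rps6, Crk and Mtor, named after their values were seen, and in each gene the brightest probe did not pass. Enpp1 encodes an ectoenzyme that inhibits the insulin receptor. Its probe A_51_P408584 was not well above background on any BTBR array and read -2.13, -2.40 and -2.14 in C57BL/6J mice. In the main processing it was at least 17.9-fold lower in BTBR, a bound set by the lowest signal well above background on each BTBR array. Over all settings its log2 difference ran from -6.20 to -1.08, so the bound applies to the main processing. With no filter on dim probes, the limma adjusted p of this Enpp1 probe was 0.000486. The other Enpp1 probe ran the opposite way, at -2.01, -1.94 and -2.74 in BTBR mice, against -2.97, -2.98 and -3.24 in C57BL/6J mice (0.83 ± 0.23, adjusted p = 0.117).

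Rps6 encodes a ribosomal protein phosphorylated downstream of mTOR. Its probe A_52_P531325 was not well above background in BTBR and at least 3.86-fold lower (limma adjusted p = 0.00457 with no filter on dim probes). This bound too applies to the main processing, since the difference at that probe ran from -4.54 to -0.37 over all settings. The bright Rps6 probe differed by -0.03 ± 0.11 (limma adjusted p = 0.942). Mtor, the kinase itself, was 3.67-fold lower at A_52_P67643 (-1.87 ± 0.23, limma adjusted p = 0.00597) and differed by 0.00 ± 0.10 at its other probe (adjusted p = 0.993). In the authors' deposited values the first of these differences was -0.36 (limma adjusted p = 0.0172). Crk, an adaptor that binds receptor substrates, was 1.82-fold higher at A_52_P515840 (0.86 ± 0.10, limma adjusted p = 0.00494) and differed by 0.07 and 0.01 at its other probes. In the authors' deposited values the A_52_P515840 difference was 0.48 (limma adjusted p = 0.00564). All 4 of these probes lost their calls with normexp background correction (limma adjusted p 0.0942 to 0.962).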

How the data were processed

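RNA of whole prefrontal cortex from 3 BTBR and 3 C57BL/6J mice was labelled with Cy3 from 0.5 µg (RNA integrity number 9), per the labels' protocols. Spot intensity values in the deposited files had been background-subtracted by the scanner software, Agilent's Feature Extraction, whose version the file headers give as 10.7.3.1, while the submitters' processing notes name version 9.1. The authors' matrix holds log2 values whose scaling and centring are not given in the sources used here (array medians 8.822 to 8.826). It served as an alternative, and its strain differences correlated with those of the scanner signal at 0.792 over tested probes (slope 0.374), in the same direction. Probe positions are in mm9, per the file headers.

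Log2 processed signal was reduced by the 75th percentile of each array (859 to 1607 before the log). Outlier-flagged spots were left out where a probe had others, spots of a probe were averaged, and probes well above background on at least 3 of 6 arrays entered. No probe was saturated. Strains were compared with limma 3.58.1 (lmFit, eBayes) in R 4.3.3 (tables read through data.table, version 1.17.8), two-sided, and the script was tested on simulated data. For a probe not above background in a strain, the bound uses, per array, the higher of its own signal and the lowest signal well above background. The number of arrays limits precision, and the design text gives 3 mice per group.

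The genes, lists and tests were chosen with earlier results of these data known. Named were all probes of the 10 genes, listed pathway genes past the test and up to 3 others per role by p, neighbours within 500 kb of a passing gene and the 5 genes most like it. Marker lists also covered microglia, endothelium and pericytes, meningeal fibroblasts and pituitary. Of these, 1 of 6 microglial markers passed, Cx3cr1, which was higher in BTBR by 1.22 (limma adjusted p = 0.00263). Of the others, 0 of 6, 8 and 6 passed in limma (0, 2 and 0 at an unadjusted p under 0.05). Same-numbered mice shared a slide but were not treated as pairs. Their deviations correlated at 0.0282, -0.17 and -0.0786, which with 3 mice per strain cannot exclude pairing. Alternatives covered background correction, scaling, the filter, the prior, array weights, flagged spots, the authors' values, slide and replicate blocks, gene-level values and leaving out mice.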

Additional observations from a re-analysis of the deposited data

How the results depend on the processing

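The Ide calls held in 19 of 20 alternatives at A_51_P299644 and 18 of 19 at A_52_P266530, each mouse left out included, the exception being normexp. Main counts were 1632 probes over the whole array, 2 Ide probes and 2 listed pathway genes. Normexp background correction gave 170, 0 and 0, with 44 of 170 higher in BTBR against 657 of 1632. Array weights, which stopped before convergence, gave 3928 probes (2016 higher) and 6 pathway genes. Slide 1 alone gave 1797 probes, 900 higher. The replicate block gave 922 probes and 1 pathway gene, with Ide at adjusted p = 0.0403 and 0.0373 in limma. Samples of a block share a number and a slide. Leaving out BTBR 2 and C57BL/6J 3 gave 1008 and 1, no filter gave 1 pathway gene and the slide block 4. Gene-level fits counted genes: 901 and Ide as 1 by brightest probe, 942, Ide as 1 and 5 pathway genes by mean. Leaving out 1 mouse gave 858 to 1472 probes (858 without BTBR 1, 888 without C57BL/6J 2, 951 without C57BL/6J 1), 2 to 2 Ide probes and 0 to 3 pathway genes (0 without each of those mice). A left-out mouse left 2 in its strain.

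Differences that changed sign, in genes that did not pass, were as follows. With normexp, Insr A_52_P6490 was -0.31, Irs1 A_52_P171212 -0.23, Igf1 A_52_P306327 -0.18, Igfbp5 A_51_P204153 -0.16 and Igfbp5 A_52_P281702 0.064. With array weights, Insr A_52_P494514 was -0.065, Igfbp2 0.019 and Igfbp5 A_52_P281702 0.045. On slide 1 alone, Insr A_52_P494514 was -0.041, Irs1 A_52_P171212 -0.059, Igf1 A_52_P351116 -0.018 and Igfbp6 -0.089. Without BTBR 2 and C57BL/6J 3, Insr A_52_P494514 was -0.085 and Igfbp5 A_52_P281702 0.068, and that Igfbp5 probe was 0.0054 with quantile normalization and 0.012 with the authors' values. Leaving out 1 mouse gave -0.069 to 0.13 and -0.021 to 0.29 for the Insr probes A_52_P494514 and A_52_P6490, -0.061 to 0.29 for Irs1 A_52_P171212, -0.11 to 0.022 for Igf2r, -0.19 to 0.021 for Igfbp2, -0.065 to 0.11 for Igfbp5 A_52_P281702 and -0.024 to 0.47 for Igfbp6. The cause was not tested. Signal over background limited the Enpp1 and Rps6 probes described above to bounds.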
